A study of Mus musculus with 24 samples.

Results

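Pyroptosis is a lytic form of cell death in which gasdermins, once cut by a protease, open pores in the plasma membrane. Caspase-1, activated by inflammasomes, cuts gasdermin D, while caspase-8 acts in the extrinsic death pathway and can cut gasdermins as well. Mice carry a cluster of Gsdmc paralogs that epithelial cells of the small intestine express under type 2 cytokines (IL-4 and IL-13, signalling through STAT6), and succinate in drinking water triggers that type 2 circuit through the receptor SUCNR1 on tuft cells.

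The genes described here are the gasdermins Gsdmc, Gsdmc2, Gsdmc3, Gsdmc4, Gsdmd and Gsdme and the caspases Casp1 and Casp8, together with the sum of the 4 Gsdmc paralogs. They were taken by gene symbol, all 8 were in the table of 56691 genes, of which 34471 had a count, and all 8 passed the filter on low counts in each of the 14 comparisons. They were chosen with their response to succinate already known, so values under succinate against control are a description, and where calls on those contrasts are counted they support nothing.

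RNA came from the distal jejunum of C57BL/6-backcrossed mice, either wild type or carrying a germline Ptk6 knockout (Ptk6-/-), which removes the kinase PTK6 from every tissue. Male and female mice of both genotypes drank regular water (control) or water with 100 mM succinate for 7 days, and tissue was taken at 9 to 11 weeks of age. The 8 groups held 3 mice each (24 libraries of polyadenylated RNA), so n = 3 in every group, and the mice were age-matched animals from different litters of 1 colony. The question asked of these genes was how their levels differed with succinate, with loss of PTK6 and with sex.

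Libraries held between 8080321 and 52824743 counts, with a median of 43017686.5. Ptk6 itself had 7 to 61 counts in the 12 Ptk6-/- libraries and 284 to 2405 in the 12 wild type libraries, which matched the genotype labels. The 6 enterocyte markers were present in every library, at a summed 7921 to 42870 CPM (counts scaled to library size and TMM factor). A female wild type succinate library (replicate 2) stood apart with 13360 CPM of heart muscle genes, against at most 197.7 in any other library, and with 70.4 CPM of 4 Y-linked genes, against at most 0.979 in the other female libraries. That value lay within the range of the male libraries, 34.1 to 92.7 CPM. In a male wild type control library (replicate 1) and a male Ptk6-/- succinate library (replicate 1) the ribosomal RNA gene Rn18s-rs5 took 51.2% and 29.7% of counts, against at most 4.49% elsewhere. Some of the values that rest on these 3 libraries are given below with and without them. For the other differences of the sum only the range with 1 library left out at a time is given, and the remaining values hold all libraries.

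The 4 Gsdmc paralogs lie side by side on the minus strand of chromosome 15 in the deposited coordinates (GRCm39 per the submitters' processing notes), at chr15:63647817-63680608 for Gsdmc, chr15:63696195-63717026 for Gsdmc2, chr15:63729573-63750407 for Gsdmc3 and chr15:63763113-63784146 for Gsdmc4. The noncoding genes Gsdmcl1, Gsdmcl2 and Gsdmcl-ps are interleaved with them on the plus strand. Gsdmd lies further along the same chromosome at chr15:75734176-75739257 on the plus strand, Gsdme at chr6:50165868-50240842 on the minus strand, Casp1 at chr9:5298508-5307290 and Casp8 at chr1:58834533-58886662, both on the plus strand. All 8 are annotated as protein-coding. Gsdme overlaps Pals2 on the opposite strand, and Casp8 overlaps the gene model Gm37760 on its own strand.

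Because these paralogs are similar in sequence, part of their reads cannot be assigned to a single copy. The coding sequences (1404 bases for Gsdmc and 1440 for the others, from GENCODE M21 transcripts) were 97.1% identical between Gsdmc2 and Gsdmc3, 93.7% between Gsdmc2 and Gsdmc4, 93.8% between Gsdmc3 and Gsdmc4, and 86.7% to 87.5% between Gsdmc and each of the others. Of all 150-base stretches of a transcript, the length of 1 sequencing read, 14.9% of those in Gsdmc2, 17.99% in Gsdmc3, 8.83% in Gsdmc4 and 2.95% in Gsdmc were found unchanged in another of these paralogs, and 0 were found in any transcript outside the family. The levels of single paralogs are therefore uncertain, and the sum is given beside them. The size of that uncertainty does not follow from these shares, which count stretches of single reads whatever their level. The first 120 coding bases are shown to let the copies be compared, with capitals at the 15 positions where the 4 sequences are not all the same:
Gsdmc: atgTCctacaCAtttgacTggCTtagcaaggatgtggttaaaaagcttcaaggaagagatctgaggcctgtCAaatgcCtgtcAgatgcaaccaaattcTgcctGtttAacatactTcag
Gsdmc2: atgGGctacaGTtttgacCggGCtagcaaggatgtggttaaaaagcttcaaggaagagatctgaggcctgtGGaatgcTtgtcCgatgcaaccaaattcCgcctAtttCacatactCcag
Gsdmc3: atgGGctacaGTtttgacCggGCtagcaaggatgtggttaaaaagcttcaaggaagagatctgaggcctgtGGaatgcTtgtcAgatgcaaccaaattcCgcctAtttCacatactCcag
Gsdmc4: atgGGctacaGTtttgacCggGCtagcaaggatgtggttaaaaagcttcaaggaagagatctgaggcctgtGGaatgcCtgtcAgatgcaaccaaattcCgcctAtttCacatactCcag

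In the untreated jejunum Gsdmd was the most abundant of the 8 genes per unit length. Over the 12 control libraries its median was 100.4 FPKM (fragments scaled by transcript length and library depth), with a range of 38.4 to 127.5. The summed Gsdmc paralogs had a median of 51.4 FPKM (16.04 to 77.39), followed by Casp8 at 32.2 and Casp1 at 24.02. Within the cluster Gsdmc4 had 26.3 FPKM, Gsdmc2 17.2, Gsdmc3 8.56 and Gsdmc itself only 0.725. Gsdme, which links caspase-3 activity to pore formation, had 5.94 FPKM. The skin-type gasdermins were close to absent, with control medians of 0.209 FPKM for Gsdma and 0.158 for Gsdma2, and Gsdma3 and Gsdmcl1 had medians of 0. FPKM is not corrected for the ribosomal RNA share, and the lowest value of Gsdmd came from the male wild type control library with 51.2% Rn18s-rs5.

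Under succinate all 4 Gsdmc paralogs stood at higher levels in wild type males and in females of both genotypes, and not in Ptk6-/- males. The ratio of mean summed CPM, succinate over control, was 4.50 in wild type males, 1.204 in Ptk6-/- males, 12.7 in wild type females and 18.2 in Ptk6-/- females. In bulk tissue, more cells that express a gene and more RNA per cell cannot be told apart. The plot of the paralogs by mouse shows the same arrangement in each of them.

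**Figure D1:**
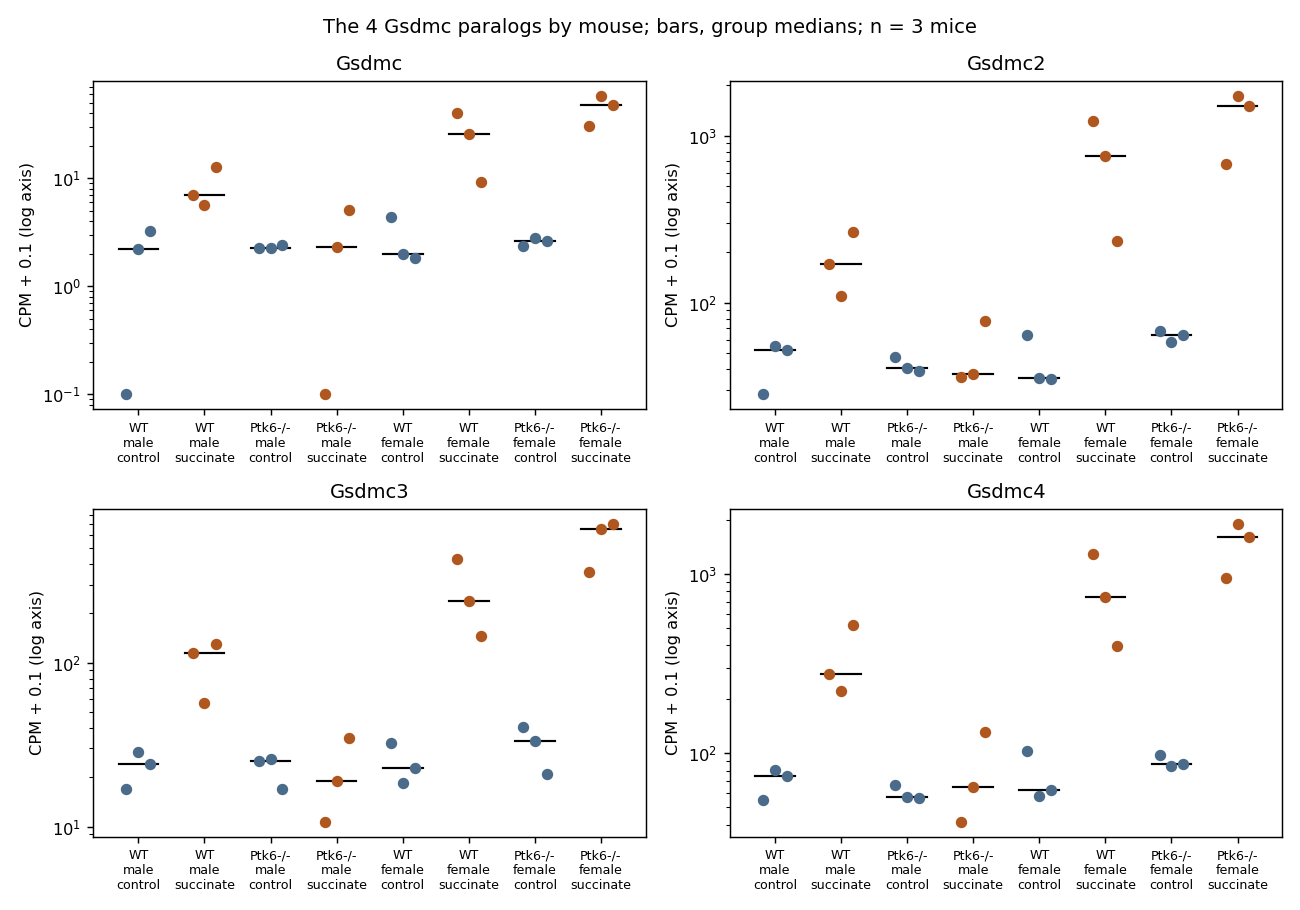
CPM + 0.1 on a log axis for Gsdmc, Gsdmc2, Gsdmc3 and Gsdmc4 in each mouse (points; blue, control; orange, succinate; bars, group medians; n = 3). Female mice given succinate of either genotype sit above every control mouse in all 4 panels, whereas Ptk6-/- males given succinate lie among the controls or just outside their range. The 2 points at the foot of the Gsdmc panel are libraries with 0 counts.

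The summed paralogs show the order of the groups most plainly. In wild type males they were at 100.0, 165.6 and 153.3 CPM in the control mice and at 567.6, 393.8 and 923.8 CPM in the succinate mice. The lowest succinate mouse was therefore above the highest control mouse. In Ptk6-/- males the control mice had 140.9, 125.1 and 114.4 CPM and the succinate mice 87.8, 122.8 and 247.6 CPM. Only 1 of those 3 succinate mice was above the controls, and the lowest was the library with 29.7% Rn18s-rs5.

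In wild type females the summed paralogs were at 202.7, 113.2 and 121.6 CPM in control mice and at 2983, 1764 and 787.3 CPM in succinate mice. The Ptk6-/- females had 207.3, 179.1 and 173.8 CPM in control mice and 2010, 4344 and 3855 CPM in succinate mice. The groups did not overlap in either genotype.

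Ranked by mean CPM, Ptk6-/- females given succinate came first (3403 ± 1231, SD), then wild type females given succinate (1845 ± 1100) and wild type males given succinate (628.4 ± 270.2). Each of these neighbours overlapped with the next in their single mice. The remaining 5 groups had means between 126.8 CPM (Ptk6-/- control males) and 186.8 CPM (Ptk6-/- control females), with the Ptk6-/- males given succinate among them at 152.7 ± 84.0 CPM. Every wild type male given succinate was above every mouse of those 5 groups.

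On the log2 scale the succinate effect on the sum was 2.15 (SE 0.37) in wild type males, 0.30 (SE 0.36) in Ptk6-/- males, 3.68 (SE 0.58) in wild type females and 4.17 (SE 0.46) in Ptk6-/- females. The single paralogs lay close to one another. In wild type males they ranged from 1.99 (Gsdmc2) to 2.26 (Gsdmc4), in wild type females from 3.27 (Gsdmc) to 4.06 (Gsdmc2) and in Ptk6-/- females from 4.03 (Gsdmc4) to 4.35 (Gsdmc2). In Ptk6-/- males they lay between -0.02 (Gsdmc3) and 0.44 (Gsdmc4). Leaving out the libraries that stood apart gave 1.99 (SE 0.42) in wild type males, 0.55 (SE 0.26) in Ptk6-/- males and 3.69 (SE 0.61) in wild type females.

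Called genes were those with a fold change of at least 2 and a Benjamini-Hochberg adjusted p under 0.05 over the whole table (edgeR quasi-likelihood test). In Ptk6-/- females 17 of 19334 genes were called with succinate (0.0879%), all of them higher, and 4 of the 8 members were among them, the Gsdmc paralogs. With the replicate number as a block, or without control replicate 1 or 2 or succinate replicate 2 or 3, 0 genes were called there, and without control replicate 3 the 3 genes called held 0 members. In the other 3 succinate comparisons edgeR called 0 genes (0% in each), and so 0 members. DESeq2 called 47 genes (0.245%) in wild type males, 39 (0.206%) in Ptk6-/- males, 258 (1.37%) in wild type females and 433 (2.24%) in Ptk6-/- females, and among the members 3, 0, 4 and 5. At an unadjusted p under 0.05 edgeR had 781 genes in wild type males (4.07%), 1470 in Ptk6-/- males (7.75%), 1466 in wild type females (7.77%) and 2060 in Ptk6-/- females (10.7%). Since these contrasts were known when the genes were chosen, the counts are listed beside the shares and nothing is read from them.

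**Figure D2:**
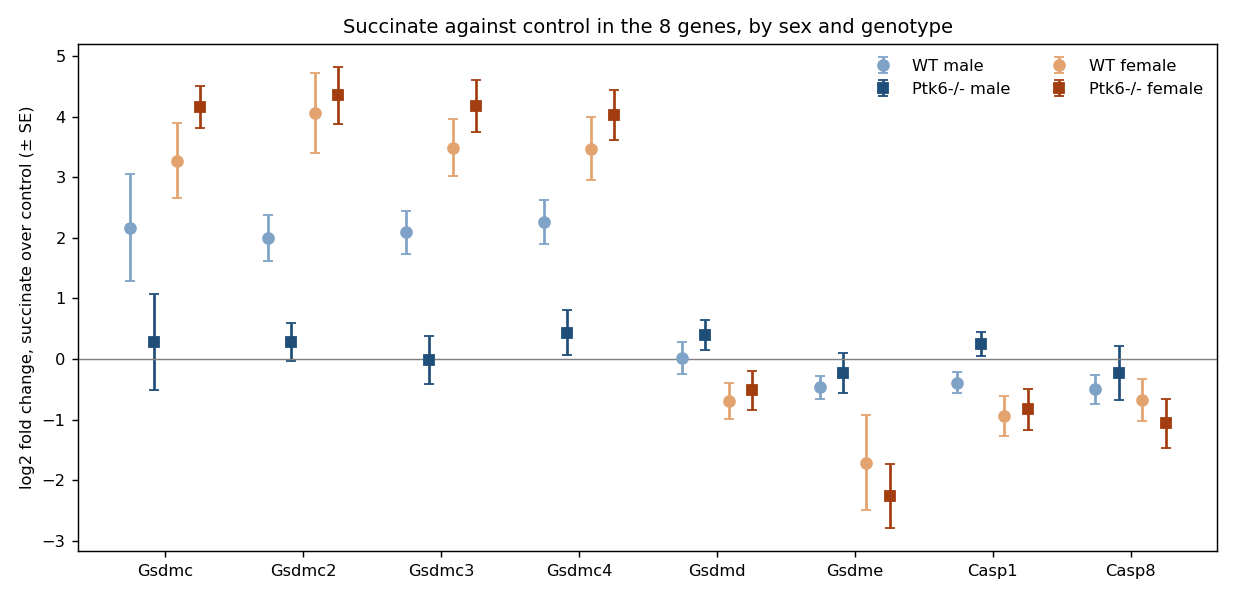
Log2 fold change of succinate over control from the edgeR fit for each of the 8 genes (points; error bars, SE), by sex and genotype, with 3 mice against 3 in each comparison. The Gsdmc paralogs lie between 1.99 and 4.35 outside Ptk6-/- males, while Gsdme lies lowest, at -2.26 in Ptk6-/- females.

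Reading the paralogs one by one shows how far they kept step. Gsdmc2 was at 28.3, 54.8 and 51.6 CPM in wild type control males and at 170.2, 109.5 and 262.9 CPM with succinate. In wild type females it went from 64.2, 35.1 and 34.9 CPM in controls to 1223, 755.2 and 235.2 CPM with succinate. With succinate it stood at 676.3, 1728 and 1506 CPM in Ptk6-/- females, against 58.0 to 67.6 CPM in their controls. In Ptk6-/- males given succinate 2 mice had 35.8 and 37.1 CPM, below every control of that genotype and sex (39.0 to 47.4 CPM), and the remaining mouse had 77.1 CPM.

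Gsdmc4, the paralog with the highest level per length, had 55.0 to 80.1 CPM in wild type control males and 276.7, 222.1 and 517.6 CPM with succinate. In females given succinate it reached 1291, 746.1 and 396.6 CPM in wild type mice and 944.7, 1905 and 1596 CPM in Ptk6-/- mice. Gsdmc3 stood between 16.8 and 28.6 CPM in wild type control males and between 56.7 and 130.6 CPM with succinate, and reached 359.0 to 705.2 CPM in Ptk6-/- females given succinate. Gsdmc, the least abundant copy, was at 0 to 3.17 CPM in wild type control males and 5.55 to 12.7 CPM with succinate, and at 30.1 to 57.8 CPM in Ptk6-/- females given succinate. Its 0 counts in a wild type control male and a Ptk6-/- succinate male both came from libraries with a high Rn18s-rs5 share.

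Gsdmc4 was the largest part of the cluster in every library, and its share was smaller in most of the mice with the highest totals. Gsdmc4 made up 48.2% to 57.6% of the summed FPKM in control libraries (median 51.6%) and 44.0% to 59.0% in succinate libraries (median 50.7%). For Gsdmc2 the medians were 31.0% and 30.8%, for Gsdmc3 16.03% and 13.98%, and for Gsdmc 1.38% and 1.24%. Of the 5 females with at least 1764 summed CPM, 4 had a Gsdmc2 share of 37.4% to 41.0%, above every control (26.6% to 34.8%), and the same 4 had a Gsdmc4 share of 44.0% to 46.5%, below every control. The remaining one, Ptk6-/- replicate 1, was within the control range for both (32.05% and 49.7%). Gsdmc2 was above the controls also in the Ptk6-/- male with 29.7% Rn18s-rs5 (38.8%), and the other 6 succinate mice did not share the shift. No test was made, and how reads shared between copies were treated is not given in the sources used here.

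**Figure D3:**
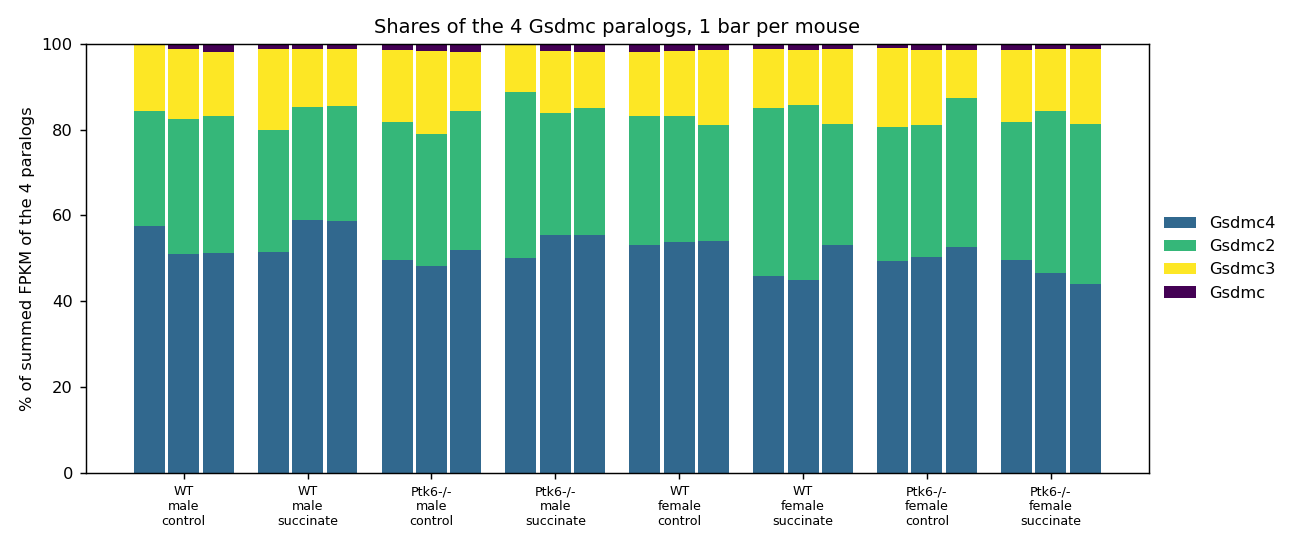
Share of each paralog in the summed FPKM of Gsdmc, Gsdmc2, Gsdmc3 and Gsdmc4 (stacked, in percent), with 1 bar for each of the 24 mice, grouped by genotype, sex and treatment. Gsdmc4 is the largest part in each bar, between 44.0% and 59.0%, and the 4 lowest shares, 44.0% to 46.5%, are in females given succinate.

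Loss of PTK6 was compared first in untreated mice. In control males 142 of 19218 genes were called between genotypes (0.739%) and in control females 3 of 19035 (0.0158%), with 0 of the 8 members called in either sex. DESeq2 called 311 genes (1.62%) and 263 genes (1.38%), and 0 members as well. The summed paralogs differed, Ptk6-/- minus wild type, by -0.17 (SE 0.17, adjusted p = 0.580) on the log2 scale in males and by 0.35 (SE 0.29, adjusted p = 0.667) in females. The nearest to a difference was Casp1 in males, at 77.5, 85.7 and 84.1 CPM in Ptk6-/- mice against 88.0, 105.0 and 97.9 CPM in wild type mice. These groups did not overlap, as was so for 16.3% of all genes in the same direction, and the difference of -0.27 (SE 0.11) missed the threshold (unadjusted p = 0.0389, adjusted p = 0.175, edgeR). It was the single member with an unadjusted p under 0.05 in control males, where 25.2% of all genes had one, and there were 0 such members in control females, where 11.1% of all genes had one.

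Among succinate-treated males the 4 paralogs were lower in Ptk6-/- mice, and the groups of 3 mice did not overlap for any of them. The share of all genes in which Ptk6-/- mice were lower without overlap was 5.79%. The log2 differences were -1.64 (SE 0.85) for Gsdmc, -1.81 (SE 0.46) for Gsdmc2, -2.18 (SE 0.50) for Gsdmc3 and -2.07 (SE 0.53) for Gsdmc4. For the sum the difference was -2.01 (SE 0.52), 0.249 times the wild type level. With edgeR 0 of 18904 genes were called (0%), and the sum had an unadjusted p of 0.00477 and an adjusted p of 1.00. Of the 8 members 3 had an unadjusted p under 0.05, against 2.72% of all genes. For Gsdmd the difference was 0.37 (SE 0.34), with 344.1 to 393.1 CPM in Ptk6-/- and 209.1 to 358.0 CPM in wild type mice, which overlapped; scaled within these 6 libraries alone they did not, as was so for 3.04% of all genes in that direction.

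The call in succinate-treated males depended on the test, and since the levels under succinate were known when the genes were chosen, these p-values are no independent evidence either. DESeq2 called 67 of 18904 genes (0.354%), among them Gsdmc3 (adjusted p = 0.0177) and Gsdmc4 (adjusted p = 0.0411), with Gsdmc2 at 0.0644, Gsdmc at 1.00 and the sum at 0.0366. An exact permutation test of the summed log2 CPM gave p = 0.1 (two-sided), the smallest value that 3 mice against 3 allow. Without the Ptk6-/- library with 29.7% Rn18s-rs5 the difference of the sum was -1.76 (SE 0.50, adjusted p = 0.822, edgeR). Over all alternatives the adjusted p of the sum ran from 0.0366 to 1.00.

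Among succinate-treated females the difference had the opposite sign and was within the spread of the mice. The sum was 0.84 higher on the log2 scale in Ptk6-/- females (SE 0.59, adjusted p = 0.932), and 0 of 19180 genes were called (0%) by edgeR against 28 by DESeq2. Of the members 0 were called by either tool and 0 had an unadjusted p under 0.05, against 4.52% of all genes. Without the library that carried heart and Y-linked RNA the difference was 0.81 (SE 0.69, adjusted p = 1.00).

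Whether the succinate effect differed between genotypes was fitted as an interaction within each sex. This interaction, like those with sex below, is a difference of succinate contrasts that were known when the genes were chosen, so its p-values are no independent evidence and nothing is read from them. In males the effect on the sum was smaller in Ptk6-/- mice, with a log2 difference of -1.84 (SE 0.56, unadjusted p = 0.00605, adjusted p = 0.992 by edgeR). In females the corresponding estimate was 0.52 (SE 0.66, adjusted p = 0.925). The call was the same in both: 0 of 20340 and 0 of 20531 genes passed (0% in each), and 0 members passed with edgeR. DESeq2 called 65 genes (0.32%) and 61 genes (0.297%) and limma 0 in each, again with 0 members. In males 4 of the 8 members had an unadjusted p under 0.05 (3.8% of all genes), namely Gsdmc2, Gsdmc3, Gsdmc4 and Casp1, and in females 0 did (6.46%). The adjusted p of the male interaction of the sum ran from 0.156 to 1.00 over the alternatives, and the 95% interval of its estimate was -2.93 to -0.75. Without the male libraries that stood apart the estimate was -1.42 (SE 0.53, adjusted p = 1.00).

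The sexes were compared in the same way. In control mice 13 of 20428 genes were called between females and males (0.0636%), which included Xist and 4 Y-linked genes, and 0 of the 8 members. The sum was 0.29 higher on the log2 scale in females (SE 0.18, adjusted p = 0.477), and Casp1 was 0.43 higher (SE 0.17, unadjusted p = 0.0212, adjusted p = 0.415, edgeR). Casp1 was the single member with an unadjusted p under 0.05, against 11.9% of all genes.

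In Ptk6-/- mice the succinate effect on the sum was larger in females than in males by 3.88 on the log2 scale (SE 0.58), with an unadjusted p of 1.79e-05 and an adjusted p of 0.152 (edgeR, 0 of 20471 genes called, 0%). The single paralogs had differences of 3.60 to 4.203 and adjusted p-values between 0.104 and 0.263. Of the members 7 had an unadjusted p under 0.05 (7.12% of all genes), all but Casp8. DESeq2 called 180 of 20471 genes (0.879%) and all 4 paralogs, with adjusted p = 1.05e-08 for the sum, and limma on log2(FPKM + 1) called 41 of 14084 genes (0.291%) and all 4 paralogs, in a fit where the median of all genes was at 0.56. The adjusted p of the sum ran from 1.05e-08 to 0.506 over all alternatives. It was under the threshold also without the Ptk6-/- succinate male with the highest summed level (replicate 3), and at 0.144 without the male library with 29.7% Rn18s-rs5, where the estimate was 3.61 (SE 0.53).

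In wild type mice the female effect exceeded the male effect by 1.53 (SE 0.67, unadjusted p = 0.0424, adjusted p = 0.909). With edgeR 0 of 20415 genes were called (0%), and DESeq2 called 6 genes (0.0294%) and 0 members. Gsdmc2 and Gsdmc3 had an unadjusted p under 0.05, as did 5.28% of all genes. The difference between these differences, the interaction of sex, genotype and succinate over all 24 mice, was 2.39 (SE 0.90, unadjusted p = 0.0151, adjusted p = 0.773, 0 of 21694 genes called by edgeR, 0%). Gsdmc2, Gsdmc3 and Gsdmc4 had an unadjusted p under 0.05 there, as did 5.99% of all genes, and DESeq2 called 99 genes and 0 members. These interactions share mice with one another and with the comparisons above.

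Of the 4 remaining genes Gsdme had the largest differences with succinate, in females. In wild type females it was at 129.2, 103.7 and 145.4 CPM in control mice and at 14.4, 9.53 and 91.8 CPM with succinate. In Ptk6-/- females it was at 81.5, 92.5 and 126.6 CPM in control mice and at 39.0, 9.57 and 15.8 CPM with succinate. The groups did not overlap, but wild type replicate 3 was close to its controls. The log2 fold changes were -1.71 (SE 0.79) and -2.26 (SE 0.52).

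A single mouse weighed heavily on the wild type value of Gsdme. Without female wild type succinate replicate 3 the log2 fold change was -3.35, in a fit that called 597 of 18493 genes against 0 with all 3 mice. Without the library that carried heart and Y-linked RNA (replicate 2) it was -1.25 (SE 0.70).

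In males Gsdme differed less with succinate. Wild type control males had 91.7, 109.8 and 118.8 CPM and succinate males 73.4, 88.1 and 75.7 CPM, a log2 fold change of -0.46 (SE 0.19). Ptk6-/- males had 74.0, 114.7 and 93.0 CPM in controls and 42.5, 94.8 and 96.0 CPM with succinate, a log2 fold change of -0.23 (SE 0.33), where the low value came from the library with 29.7% Rn18s-rs5. Without that library it was 0.03 (SE 0.18). The succinate effect on Gsdme was lower in females than in males, with a log2 difference of -2.01 in Ptk6-/- mice (SE 0.65, unadjusted p = 0.00899, adjusted p = 0.530) and of -1.25 in wild type mice (SE 0.87, adjusted p = 0.920), so neither passed with edgeR. Without female wild type succinate replicate 3 the wild type estimate was -2.90 with an adjusted p of 0.00795, in a fit that called 59 of 20293 genes against 0 with all mice.

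Gsdmd, the target of caspase-1 and the most abundant gasdermin in controls, differed by less than 1 on the log2 scale in all 4 succinate comparisons. In wild type females it was at 404.4, 384.8 and 384.7 CPM in control mice and at 313.7, 183.3 and 221.8 CPM with succinate, without overlap. In Ptk6-/- females it was at 226.6, 284.0 and 381.9 CPM in controls and 246.9, 216.2 and 175.1 CPM with succinate, with overlap. The log2 fold changes were -0.70 (SE 0.30) and -0.51 (SE 0.32). In males they were 0.02 (SE 0.26) in wild type mice and 0.39 (SE 0.25) in Ptk6-/- mice, whose succinate libraries, at 344.1 to 393.1 CPM, were all above their controls at 223.3 to 336.0 CPM.

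Casp1, the inflammasome caspase, was lower with succinate in females of both genotypes without overlap. It was at 97.8, 149.6 and 129.0 CPM in wild type control females and at 64.2, 43.2 and 87.7 CPM with succinate, a log2 fold change of -0.94 (SE 0.32). In Ptk6-/- females it was at 104.8, 87.0 and 166.0 CPM in controls and 85.8, 60.4 and 60.3 CPM with succinate, a log2 fold change of -0.83 (SE 0.34). In wild type males the log2 fold change was -0.39 (SE 0.17) and in Ptk6-/- males 0.25 (SE 0.20). The interaction of genotype and succinate in males was 0.64 for Casp1 (SE 0.26, unadjusted p = 0.0277, adjusted p = 0.993).

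Casp8, the caspase of the extrinsic pathway, had log2 fold changes of -0.50 (SE 0.24) in wild type males, -0.23 (SE 0.45) in Ptk6-/- males, -0.68 (SE 0.35) in wild type females and -1.06 (SE 0.41) in Ptk6-/- females. In the last of these the control mice had 108.9, 123.2 and 246.4 CPM and the succinate mice 91.3, 54.5 and 90.7 CPM. In Ptk6-/- males the control mice had 117.6, 155.5 and 164.8 CPM and the succinate mice 43.3, 162.2 and 160.8 CPM. The low value there came from the library with 29.7% Rn18s-rs5. Neither Casp8 nor Gsdmd, Gsdme or Casp1 was called between genotypes or sexes in any comparison by edgeR on the full set of libraries.

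**Figure D4:**
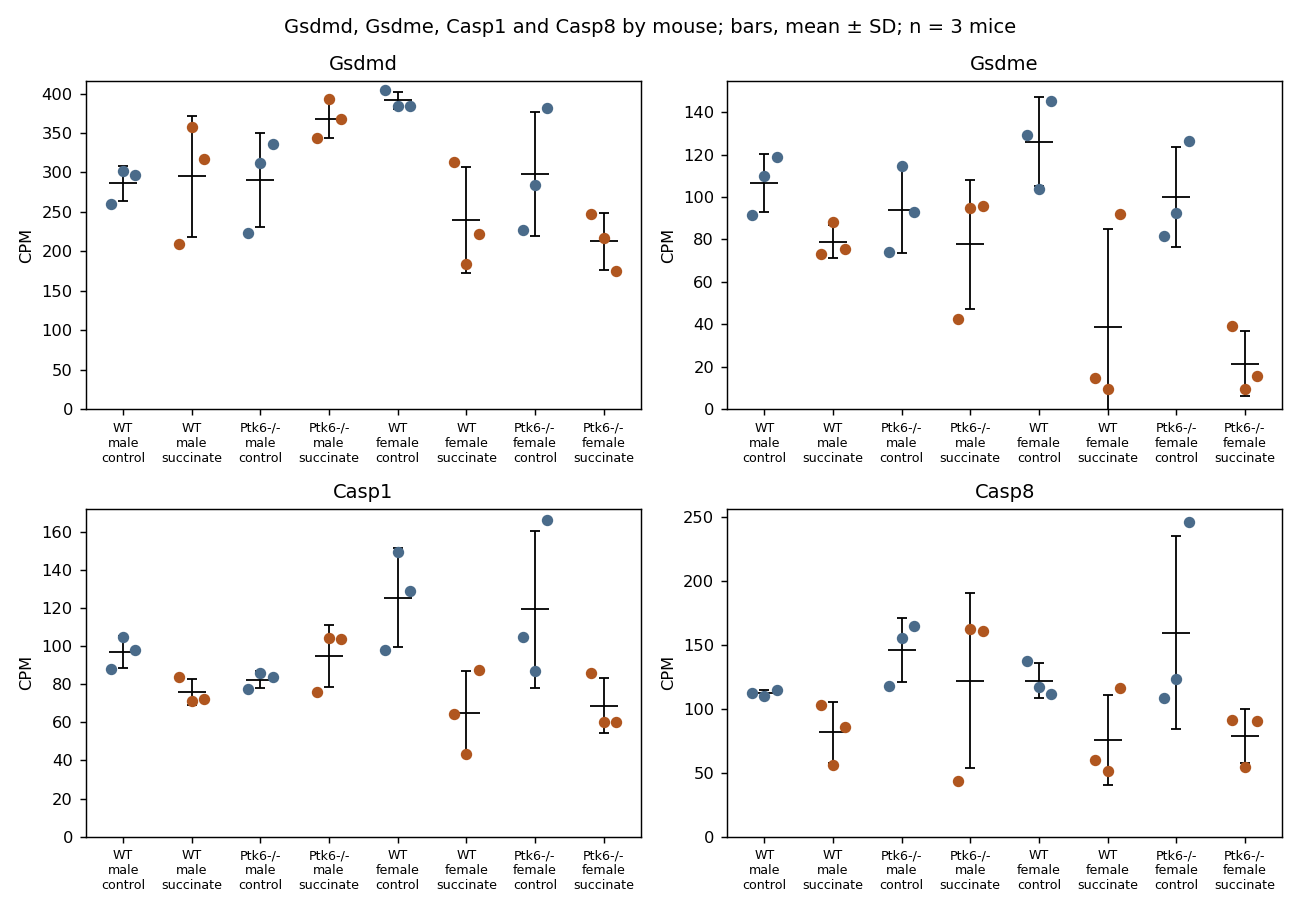
CPM of Gsdmd, Gsdme, Casp1 and Casp8 in each mouse (points; blue, control; orange, succinate) with the group mean and SD (bars, n = 3), on axes that start at 0, where the SD bar of Gsdme in wild type females given succinate is cut off. Gsdme is at or below 39.0 CPM in 5 of the 6 females given succinate and in none of the other mice.

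Counted by overlap, in wild type females 4 members were higher with succinate in every mouse (6.41% of all genes) and 3 lower (6.66%), and in Ptk6-/- females 4 were higher (10.2%) and 3 lower (11%). In wild type males 4 were higher (4.66%) and 3 lower (4.52%), and in Ptk6-/- males 1 was higher, Gsdmd (11.4%), and 0 lower (12.4%). The rule that chose the genes used these contrasts, so the counts are a listing.

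The relation of each of the other 4 genes to the summed paralogs was computed over the 12 mice given succinate and over the 12 controls. Levels under succinate were known when the genes were chosen. The permutation also moved mice freely between groups of different sex and genotype, whose levels differ. The p-values of these relations, here and in the next paragraph, are therefore no independent evidence. Over the log2 CPM of the succinate mice, Pearson's r between Gsdme and the sum was -0.73 (permutation p = 0.00912) and Spearman's rho -0.734 (permutation p = 0.00879). With 8 such relations computed, for Gsdmd, Gsdme, Casp1 and Casp8 each in succinate and in control mice, the Benjamini-Hochberg adjusted values were 0.0523 and 0.053, so the relation did not pass. Without the 2 mice farthest from the median of the sum r was -0.872, and without the libraries that stood apart it was -0.887. Within the 6 females it was -0.784 and within the 6 males 0.351, so the relation did not hold within both sexes. In the 12 control mice r was 0.0383.

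For Gsdmd the r among succinate mice was -0.702 (permutation p = 0.0131) and rho -0.706 (p = 0.0133), with adjusted values of 0.0523 and 0.053. It was -0.578 without the 2 farthest mice and -0.686 without the libraries that stood apart, and within the 6 females it was -0.018 and within the 6 males -0.53. For Casp1 it was -0.626 (permutation p = 0.0285, adjusted 0.0759), with rho -0.657 (p = 0.0242, adjusted 0.0645), -0.635 without the 2 farthest mice, -0.834 without the libraries that stood apart, and -0.411 and -0.412 within females and males. For Casp8 it was -0.265 (permutation p = 0.401, adjusted 0.801), with rho -0.245 (p = 0.444, adjusted 0.888), -0.534 without the 2 farthest mice, -0.67 without the libraries that stood apart, and -0.534 and 0.0678 within females and males. In control mice the 4 values of r lay between -0.0859 and 0.0905.

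**Figure D5:**
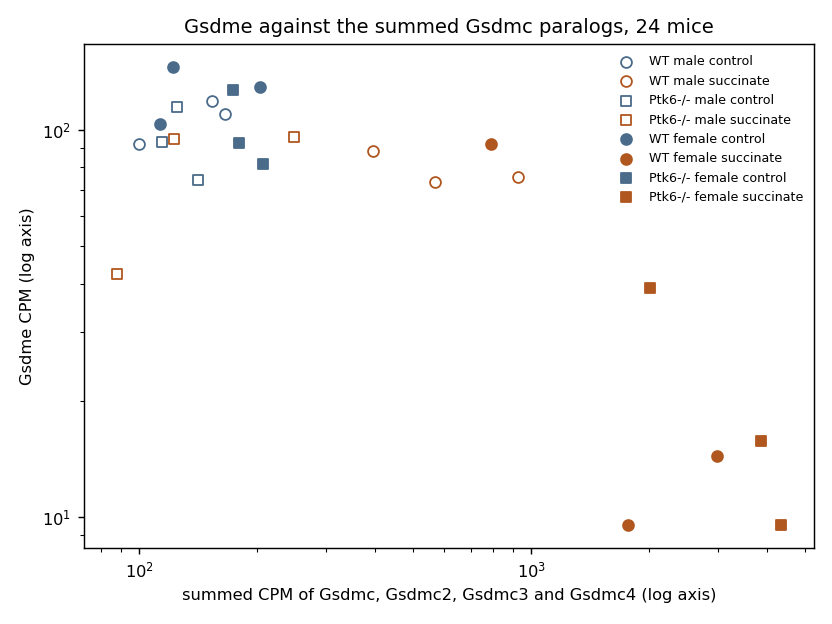
Gsdme CPM against the summed CPM of the 4 Gsdmc paralogs in all 24 mice, both on log axes (circles, wild type; squares, Ptk6-/-; filled, female; open, male; blue, control; orange, succinate). The 5 females with at least 1764 summed CPM hold the 5 lowest Gsdme values, from 9.53 to 39.0 CPM, and the control mice form 1 cloud with no trend.

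The genes whose levels followed the summed paralogs most closely were sought over all 24 libraries, by Pearson's r of log2(FPKM + 1) among 11651 genes with a mean of at least 1 FPKM. This is a description, since the libraries share the succinate contrast. The noncoding neighbour Gsdmcl2 came first (r = 0.981), and others among the 10 highest were the protease gene Capn13 (0.978), Vav1 (0.971), Cd55 (0.970), Irag2 (0.970), Avil (0.966), Siglecf (0.966), Edn1 (0.957) and Me1 (0.955). Of the other members Gsdme had r = -0.524, rank 41 from the lowest, while Gsdmd had 0.0123, Casp1 -0.0562 and Casp8 -0.049.

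Gsdmcl2 had 6.27 ± 0.311 CPM in wild type control males and 26.8 ± 13.6 with succinate, 5.19 ± 0.248 and 5.69 ± 4.40 in Ptk6-/- males, 6.17 ± 3.14 and 85.7 ± 41.1 in wild type females, and 8.99 ± 3.22 and 96.8 ± 32.1 in Ptk6-/- females (mean ± SD). Its log2 fold change with succinate was 3.39 (SE 0.40) in Ptk6-/- females, given as a description since it was picked for its likeness over the same libraries. Gsdmcl-ps, a transcribed pseudogene of the cluster, had 0 counts in all 3 wild type control females and 14.1, 9.07 and 0.283 CPM (605, 295 and 11 counts) with succinate, so that 1 of the 3 mice was close to the controls and another was the library with heart and Y-linked RNA. In Ptk6-/- females its mean was 0.209 CPM in controls and 9.27 CPM with succinate.

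The rest of the pathway was read from lists of genes around these members. The inflammasome sensors had 12 genes tested in Ptk6-/- females, of which 0 were called with succinate (0.0879% of all genes called). Their median log2 fold change was -0.47, against -0.04 over all genes, and 4 of them were lower in every succinate mouse (11% of all genes). Nlrp6, a sensor abundant in gut epithelium and the first of the list by FPKM, had a log2 fold change of -0.47 (SE 0.30). In the other 3 succinate comparisons the median of the sensors was -0.20 in wild type males, -0.38 in Ptk6-/- males and -0.23 in wild type females, with 0 called in each (0% of all genes). Naip5, which detects flagellin, ranged from -0.50 to -0.18 over the 4 comparisons, with SEs of 0.20 to 0.41.

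Of the 9 inflammasome adaptors and regulators 0 were called with succinate in any of the 4 comparisons. The share of all genes called was 0.0879% in Ptk6-/- females and 0% in each of the others. In Ptk6-/- males 1 of the list was higher without overlap (11.4% of all genes) and 3 lower (12.4%), with 0 in either direction in the other comparisons. Pycard, the adaptor that joins sensors to caspase-1, had log2 fold changes of 0.00 (SE 0.20) in wild type males, 0.66 (SE 0.33) in Ptk6-/- males, -0.61 (SE 0.32) in wild type females and -0.42 (SE 0.29) in Ptk6-/- females. The 8 cytokine genes of the IL-1 family and its regulators likewise held 0 called in the 4 comparisons, beside the same shares of all genes called. Il18, the family member with the highest level here, had a log2 fold change of -0.75 (SE 0.28) in wild type females and -0.62 (SE 0.45) in Ptk6-/- females. The medians of that list were 0.12 and 0.07, with 2 genes higher (6.41% of all genes) and 2 lower (6.66%) without overlap in wild type females, and 0 higher (10.2%) and 1 lower (11%) in Ptk6-/- females.

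Of the 10 further caspases and proteases tested in females 0 were called (0% of all genes in wild type and 0.0879% in Ptk6-/- females). Their median log2 fold changes were -0.24 and -0.22. In wild type females 1 was higher without overlap (6.41% of all genes) and 3 lower (6.66%). In Ptk6-/- females 2 were higher (10.2%) and 3 lower (11%). Gzmb, the granzyme that can cut gasdermin E, was at 31.9 ± 5.03 CPM in wild type control females and 9.99 ± 10.6 with succinate, and at 36.3 ± 12.8 and 11.1 ± 8.36 CPM in Ptk6-/- females (mean ± SD). Casp4, the mouse caspase-11 that senses lipopolysaccharide and cuts gasdermin D, was picked out after its values were seen. It was at 38.0 ± 8.91 and 10.6 ± 6.99 CPM in wild type females, at 58.8 ± 27.6 and 9.54 ± 1.80 in Ptk6-/- females, at 37.7 ± 1.93 and 17.9 ± 5.43 in wild type males and at 33.7 ± 8.57 and 45.1 ± 13.5 in Ptk6-/- males, control first. Its log2 fold changes of -1.83 (SE 0.46), -2.66 (SE 0.40), -1.11 (SE 0.23) and 0.47 (SE 0.28) all missed the threshold, with adjusted p = 0.508, 0.113, 0.947 and 0.622 (edgeR).

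The 15 genes around caspase-8 and necroptosis had a median log2 fold change of -0.55 with succinate in Ptk6-/- females. Of these 9 were lower in every mouse (11% of all genes), 1 was higher (10.2%) and 0 were called (0.0879%). In wild type males, Ptk6-/- males and wild type females their medians were -0.23, -0.06 and -0.27, again with 0 called (0% of all genes in each). There 3, 1 and 3 were lower without overlap (4.52%, 12.4% and 6.66% of all genes). In the same order 1, 2 and 0 were higher (4.66%, 11.4% and 6.41%). Tnfrsf1a, the TNF receptor that leads to caspase-8, had a log2 fold change of -0.55 (SE 0.28) in Ptk6-/- females and of -0.55 (SE 0.31) in wild type females.

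Of the genes of type 2 signalling 12 were tested in Ptk6-/- females and 0 were called (0.0879% of all genes), with a median of -0.01. Of these 5 were higher without overlap (10.2% of all genes) and 3 lower (11%). The higher ones were Sucnr1, Il17rb, Il13, Il4 and Pou2f3, named after their values were seen. Il13, with 0 counts in every control female, passed the filter on low counts only through its succinate libraries. Its lack of overlap was thus fixed by the filter, and the count of 5 is a listing. The receptor chains Il13ra1 and Il4ra and the transcription factor Stat6 had log2 fold changes of -0.28 (SE 0.22), -0.31 (SE 0.24) and -0.45 (SE 0.32). The ligand Il13, named here after its values were seen, had 0 counts in every control female, 4 to 50 counts in wild type females given succinate and 27 to 175 counts in Ptk6-/- females given succinate, and 0 counts in all 3 Ptk6-/- males given succinate. The succinate receptor gene Sucnr1, likewise named afterwards, was at 1.10 CPM in wild type males given succinate against 0.268 in controls, at 0.304 against 0.305 in Ptk6-/- males, at 2.46 against 0.501 in wild type females and at 3.37 against 0.579 in Ptk6-/- females.

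Markers of other cell types and of gut segments differed between the groups as well. The tuft list (6 of 6 genes in the table) summed to 25.5 to 39.3 CPM in the 12 control mice, to 49.1 to 67.7 CPM in wild type males given succinate, 30.5 to 46.9 in Ptk6-/- males, 73.7 to 222.6 in wild type females and 111.3 to 249.2 in Ptk6-/- females. Il25, the tuft cell cytokine, was at 0 counts in both male control groups and in Ptk6-/- males given succinate. A list that joins markers of jejunum and ileum (Fabp6, Slc10a2 and Gata4) summed to 408.8 to 2243 CPM in control females, but to 119.9 to 1016 CPM in wild type and 104.0 to 270.2 CPM in Ptk6-/- females given succinate. As markers of both segments are added, this sum is no measure of position. In males it ran from 542.6 to 2848 CPM, apart from the Ptk6-/- succinate library with 29.7% Rn18s-rs5, which had 8442 CPM and also the highest enterocyte sum (42870 CPM). Enterocyte markers summed to 26560 to 35120 CPM in wild type control females and 17040 to 22980 CPM with succinate, and smooth muscle markers to 2431 to 2984 and 3218 to 5967 CPM, both without overlap. In Ptk6-/- females both lists overlapped. There enterocyte markers were at 9952 to 37940 and 7921 to 12260 CPM, and smooth muscle markers at 1809 to 3477 and 2962 to 3814 CPM. Crypt progenitor markers summed to 167.6 to 506.8 CPM in Ptk6-/- control females and 531.2 to 568.0 CPM with succinate, without overlap. In wild type females they overlapped, at 231.5 to 338.0 and 156.7 to 359.0 CPM. In wild type males goblet markers summed to 7736 to 8590 CPM in controls and 8887 to 10290 CPM with succinate, without overlap. B cell follicle markers there summed to 2.36 to 18.6 and 20.7 to 38.1 CPM, also without overlap. In Ptk6-/- males enterocyte markers were at 9412 to 14670 and 15570 to 42870 CPM, and leukocyte markers at 166.6 to 353.1 and 129.4 to 166.3 CPM, without overlap. The part of any of these lists in the levels of the gasdermins was not tested. Among succinate-treated males leukocyte markers summed to 258.3 to 361.4 CPM in wild type and 129.4 to 166.3 CPM in Ptk6-/- mice, B cell follicle markers to 20.7 to 38.1 and 1.35 to 6.94 CPM, and goblet markers to 8887 to 10290 and 11090 to 16160 CPM, all without overlap. Their part in the genotype difference of the paralogs was not tested. In control males enterocyte markers summed to 17630 to 18060 CPM in wild type and 9412 to 14670 CPM in Ptk6-/- mice. Goblet markers summed to 7736 to 8590 and 10690 to 12900 CPM there, both without overlap, and their part in the Casp1 difference was not tested.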

How the data were processed

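The authors sequenced poly(A) RNA from stranded (dUTP) libraries, trimmed reads with Cutadapt, aligned them with HISAT2 and assembled them with StringTie. They deposited raw counts per gene and, separately, FPKM values, with coordinates on GRCm39 per the submitters' processing notes. The counting program, the annotation release and the treatment of reads that match several genes are not given in the sources used here, which bears on the similar Gsdmc paralogs. 

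Counts were tested with edgeR 4.0.16 (TMM scaling, quasi-likelihood test) on the libraries of each comparison, with genes of at least 10 counts in at least 3 libraries, and the paralogs were also summed before the fit as 1 added row. P-values were Benjamini-Hochberg adjusted over all genes tested, and a called gene had an adjusted p under 0.05 and a fold change of at least 2. DESeq2 1.42.0 and limma 3.58.1 (log2 FPKM with a pseudocount of 1, where the mean reached 0.5 FPKM) were run as alternatives in R 4.3.3, beside other scalings, filters and pseudocounts, a replicate block and each library left out, and the fitting script was tested on simulated data. Counts had a depth of 8080321 to 52824743 per library, and Gsdmc was the member with the lowest level, at 0 to 3.17 CPM in wild type control males.

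The 8 genes and all lists were chosen with earlier results of these data known. The genes named were the members, all other genes whose symbol begins with Gsdm, genes of the pathway lists that were called, at most 3 uncalled genes a list (those highest by mean FPKM), Ptk6, and the 10 genes most like the summed paralogs, of which 1 is not reported here; other genes are said in the text to be named after their values were seen. Each library is 1 mouse, so p-values measure the spread between mice.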

Additional observations from a re-analysis of the deposited data

How the results depend on the processing

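All values here are log2 differences of the summed Gsdmc paralogs unless counts of called members are named, and 0 of them reversed while called. Calls that involve succinate are on contrasts known when the genes were chosen, so they are listed for the settings only and support nothing. DESeq2 called the succinate effect on the sum in wild type males (2.152), wild type females (3.683) and Ptk6-/- females (4.181), the genotype difference in succinate-treated males (-1.992) and the sex by succinate interaction in Ptk6-/- mice (3.86), with 3, 4, 5, 2 and 4 members called. With limma on log2(FPKM + 1) and then log2(FPKM + 0.1) the succinate effect was 2.44 and 2.474 in wild type males (4 members called in each, of 126 and 127 of 13860 genes), -0.5022 and -0.5349 in Ptk6-/- males, and 4.267 and 4.287 in Ptk6-/- females. The genotype difference was 0.2762 and 0.2891 in control males and, with 0.1 added, -2.72 in succinate-treated males. The genotype by succinate interaction in males was -2.942 and -3.009, the sex by succinate interaction in Ptk6-/- mice 4.769 and 4.822 (4 members called with 1 added) and the interaction of all 3 factors 3.702 and 3.763. Without the FPKM filter the values with 1 added were the same to 4 digits in Ptk6-/- males (-0.5022), control males (0.2762) and the 3 interactions (-2.942, 4.769 and 3.702), and 0 members were called in Ptk6-/- females. With 1 added, the median of all genes was itself shifted on FPKM, by 0.25 in wild type males, -0.45 in Ptk6-/- males, 0.25 between genotypes in control males, -0.43 in succinate-treated males, and by -0.71, 0.56 and 0.82 in those 3 interactions. With all genes kept, with 10 counts asked of each library, with a gene length offset and with all 24 libraries in 1 fit, the sum was called in Ptk6-/- females at 4.186, 4.175, 4.075 and 4.185. The 24-library fit also called it in wild type females (3.677, 3 members, 104 of 18872 genes), and it and the unfiltered fit called the sex by succinate interaction in Ptk6-/- mice (3.891 and 3.891, 3 members in each, of 6 of 20471 and 12 of 31891 genes).

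Leaving out 1 library at a time put the succinate effect at 1.726 to 2.392 in wild type males (called without succinate replicate 1), -0.1937 to 0.5467 in Ptk6-/- males, 3.166 to 4.065 in wild type females (called without succinate replicate 3) and 3.933 to 4.441 in Ptk6-/- females (called without succinate replicate 1). The members called then ran from 0 to 3, 0 to 0, 0 to 5 and 0 to 4, where the fits named called 1077 of 18555, 597 of 18493 and 29 of 18805 of all genes against 0, 0 and 17 with all libraries. The genotype difference was -0.3244 to -0.02544 in control males, 0.2007 to 0.6633 in control females, -2.52 to -1.599 in succinate-treated males and 0.4772 to 1.378 in succinate-treated females, and the sex difference 0.1966 to 0.3905. The genotype by succinate interaction was -2.353 to -1.409 in males and 0.1505 to 1.031 in females. The sex by succinate interaction was 1.013 to 1.957 in wild type mice (0 to 1 members called) and 3.607 to 4.384 in Ptk6-/- mice (0 to 3 members, and the sum called without male succinate replicate 3 and without female succinate replicate 1), and the interaction of all 3 factors 1.981 to 2.94.

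Same-numbered mice did not deviate together (correlations of -0.431 to 0.286), so the replicate numbers pair nothing. With the replicate number as a block the succinate effects were 2.085, 0.1828, 3.533 and 4.097 in wild type males, Ptk6-/- males, wild type females and Ptk6-/- females, and 0 members were called in Ptk6-/- females with the block alone or with the gene length offset. It changed no other call. The 3 libraries that stood apart were singled out after seeing the data.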
